A study of Mus musculus with 6 samples.

Results

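The cytosolic ribosomal proteins are the protein parts of the ribosomes that translate nuclear-encoded mRNAs, and their transcripts were measured here in the suprachiasmatic nucleus (SCN) of mice after a light pulse at night. Genes were chosen by symbol alone, as Rpl or Rps followed by a number, Rplp followed by 0, 1 or 2, or Rpsa. Symbols with a further letter, such as Rps4x and Rpl7a, and paralogs such as Rps27l and Rpl22l1 were included. Mitochondrial ribosomal proteins were left out. The rule used no measured value and found 100 of 22626 probe sets, which belong to 48 of 12393 named genes. The small subunit supplied 20 of these genes, the large subunit 20, the P stalk 2 (Rplp0 and Rplp2) and their paralogs 6. Probe sets that the platform annotation ties to several symbols were not named. There were 102 such probe sets with a ribosomal protein among their symbols, and 28 ribosomal protein symbols, those of Rplp1, Rpl32, Rps27a and Rpl5 among them, were found on no probe set of their own. Rpl39l and Rpl3l were on the array, but their probe sets had signals too low to enter the main comparison.

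The mice were adult male C57BL/6 animals of 2 to 4 months, kept in 14 h of light and 10 h of darkness. Mice of the light pulse group received 30 min of light at 2400 lux from 1 h after lights off, and mice of the sham light pulse group stayed in darkness over the same 30 min. All were killed at the end of the pulse, 1.5 h after lights off. The SCN was cut out of 12 μm sections by laser capture, which lifts chosen tissue off a slide, and 18 sections from 3 mice were pooled for each of the 3 arrays of a group. One label field speaks of a single animal where the protocol gives a pool, and the pool is used here. Whether some mice were in several pools is not given in the sources used here, and the p-values below rest on the spread between pools alone. In such tissue pieces, fewer cells of a kind and less RNA per cell cannot be told apart.

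A ribosome joins a small subunit, which reads the mRNA, to a large subunit, which forms the peptide bond and carries the P stalk that recruits translation factors. Ribosomal protein transcripts are among the most abundant in nearly every cell, and cells make the many proteins in step, since each ribosome needs them in fixed proportion. Much of the control lies in translation: many of these mRNAs begin with a run of pyrimidines, the terminal oligopyrimidine motif, through which the kinase complex mTORC1 sets how many ribosomes load on them. In the SCN, light at night is known to activate mTORC1 and the phosphorylation of the small subunit protein Rps6, neither of which an mRNA array reads.

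Runs of pyrimidines can be seen at the annotated start of several of these genes. Each line shows 30 bases of mouse genome GRCm38.p6 on the gene's strand, 12 before the annotated transcription start and 18 from it, from RefSeq. Capitals mark the run of C and T that covers the start. Rps18, Rpl35, Rpl14, Rpl7a, Rps6 and Rplp2 are shown as genes that have a run and differ in fold change, and Rpl11 and Rpl12 as genes where no run of the length searched covers the annotated start, although that of Rpl12 holds a pyrimidine stretch just after it.
Rps18, chr17:33955648-33955677, minus strand: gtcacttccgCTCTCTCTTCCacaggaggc
Rpl35, chr2:39005114-39005143, minus strand: ccccgCCCTTTCCTCTTTCTCTCgaaccag
Rpl14, chr9:120571505-120571534, plus strand: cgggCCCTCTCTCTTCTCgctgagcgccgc
Rpl7a, chr2:26910795-26910824, plus strand: CCCTCTTCTTTCTTTCTCCagcagccgagc
Rps6, chr4:86857350-86857379, minus strand: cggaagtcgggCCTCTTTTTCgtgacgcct
Rplp2, chr7:141447639-141447668, plus strand: gtcagcgTCTTCCTTTCgccgccggacgcc
Rpl11, chr4:136053376-136053405, minus strand: acccataaggccacggggccggaagtctcc
Rpl12, chr2:32961700-32961729, plus strand: ggagcaggatccgtcttttcggctttcggc
RefSeq windows from 250 bases before to 50 after the start were at hand for 42 of the 48 genes, in 50 windows. Runs of at least 5 letters, each C or T, that covered the start were looked for on the gene's strand only. Letters before the start were counted too, although the annotated mRNA does not hold them, so a run is not by itself the motif. They stood in 13 of the 50 windows (26.0%), 1 in each of 13 genes, and in 10.1% of all 32851 windows. The longest, 21 bases, was that of Rpl7a and began 2 bases before the stretch shown. A start annotated a few bases off hides a run, so no match says only that the letters do not cover the annotated base.

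The signal of a probe set is the brightness of its short oligonucleotides, computed by the authors on a linear scale in arbitrary units with the Microarray Suite algorithm (MAS5). Brightness also depends on the probes, so signals of different probe sets were not compared as amounts of mRNA. Probe sets were ranked by the signal that at least 3 of the 6 arrays reached, which does not look at the groups, and as many were kept as the study kept, down to a signal of 118.2. Among them were 85 of the 100 ribosomal protein probe sets, covering 46 genes. Of the 15 probe sets left out, whose signals ran from 2.0 to 328.0, 13 belong to genes with another probe set kept.

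The tissue markers and the genes called over the whole array were looked at first. All 8 SCN markers were kept, among them Vip, a neuropeptide of light-receiving SCN neurons, with signals of 41694, 41960 and 30271 in sham light pulse pools and 43194, 46397 and 64589 in light pulse pools. Of 12 choroid plexus markers 9 were measured and 2 kept, with summed signals of 277 to 834 in sham light pulse pools and 444 to 111442 in light pulse pools. The highest value was that of light pulse replicate 3, where Ttr, which encodes transthyretin, stood at 110323 against 63.0 to 295.6 on the other 5 arrays. Nearly all of that sum was Ttr. Igf2, the other marker kept, was also highest on that array, as were Kl, Folr1, Aqp1 and Slc4a5, which were not kept. Cldn1, Cldn2 and Otx2, also not kept, were not highest there. The part of this tissue in the values below was not tested, and the counts are also given without that array at the end. Astrocyte markers summed to 36766 to 42145 in sham light pulse pools and 38719 to 41632 in light pulse pools. In the same order, oligodendrocyte markers ran wider, from 28891 to 54216 and from 36935 to 51628. Microglia markers had 9208 to 11912 and 7781 to 10697, and endothelial markers 10270 to 15843 and 11002 to 16112. Such sums follow the brightest markers, such as Gja1, Mbp, Csf1r and Slc2a1. The median log2 differences of kept markers were -0.22 (astrocyte), -0.05 (oligodendrocyte), -0.02 (microglia) and -0.16 (endothelial), and none was called. Endothelial Flt1 stood at -1.55 and oligodendrocyte Ugt8a at -1.08, while 2 of 6 and 3 of 6 kept markers of these lists were above 0. Over all kept probe sets, limma with Benjamini-Hochberg adjustment at a threshold of 0.05 called 7 higher and 0 lower after the light pulse. The 12 immediate-early genes that the study named, Fos and Egr1 among them, had a median log2 difference of 2.26 and 7 were called. The study picked them on these same arrays and kept them after quantitative PCR, so their values here are no independent check.

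Ribosomal protein transcripts did not pass the test in either direction after 30 min of light. With limma and Benjamini-Hochberg adjustment, 0 of the 85 probe sets were called, against 0.0677% of all kept probe sets called higher and 0.0% called lower, and the smallest adjusted p among them was 0.96. At an unadjusted p under 0.05, limma gave 5 higher and 0 lower, where 2.11% of all kept probe sets were higher and 2.21% lower. Cyber-T, a regularised test of the kind the study used, called 0, with a smallest adjusted p of 0.952. The log2 fold changes, light pulse over sham light pulse, had a median of 0.13, or 1.09-fold, and ran from -0.58 to 1.14. Of the 85, 59 were above 0 and 26 below, which is 69.4% above 0 beside 50.1% of all kept probe sets, whose median was 0.00. By gene, with the brightest probe set standing for each, 34 of 46 were above 0 and the median was 0.14.

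The 95% interval lay inside a 2-fold change in either direction for 68 of the 85 probe sets (80.0%), compared with 42.5% of all kept probe sets, and 80 of the 85 fold changes (94.1%) were under 1.5-fold in size, compared with 82.6%. The median standard error was 0.25 on the log2 scale against 0.36 overall. For the other 17 the interval reached beyond 2-fold. The absence of a call does not show equal levels: Rpl12 differed by over 2-fold without a call, and of the immediate-early genes Klf4 and Btg2, at log2 differences of 1.81 and 1.86, were not called either. With 3 arrays a group, the smallest p of an exact permutation test is 0.1, so whether the groups overlapped is given as a description. In 8 of the 85 probe sets (9.41%), of 6 genes, all light pulse arrays were above all sham light pulse arrays, and in 0 were they all below. Over all kept probe sets these shares were 5.62% and 4.46%.

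**Figure D1:**
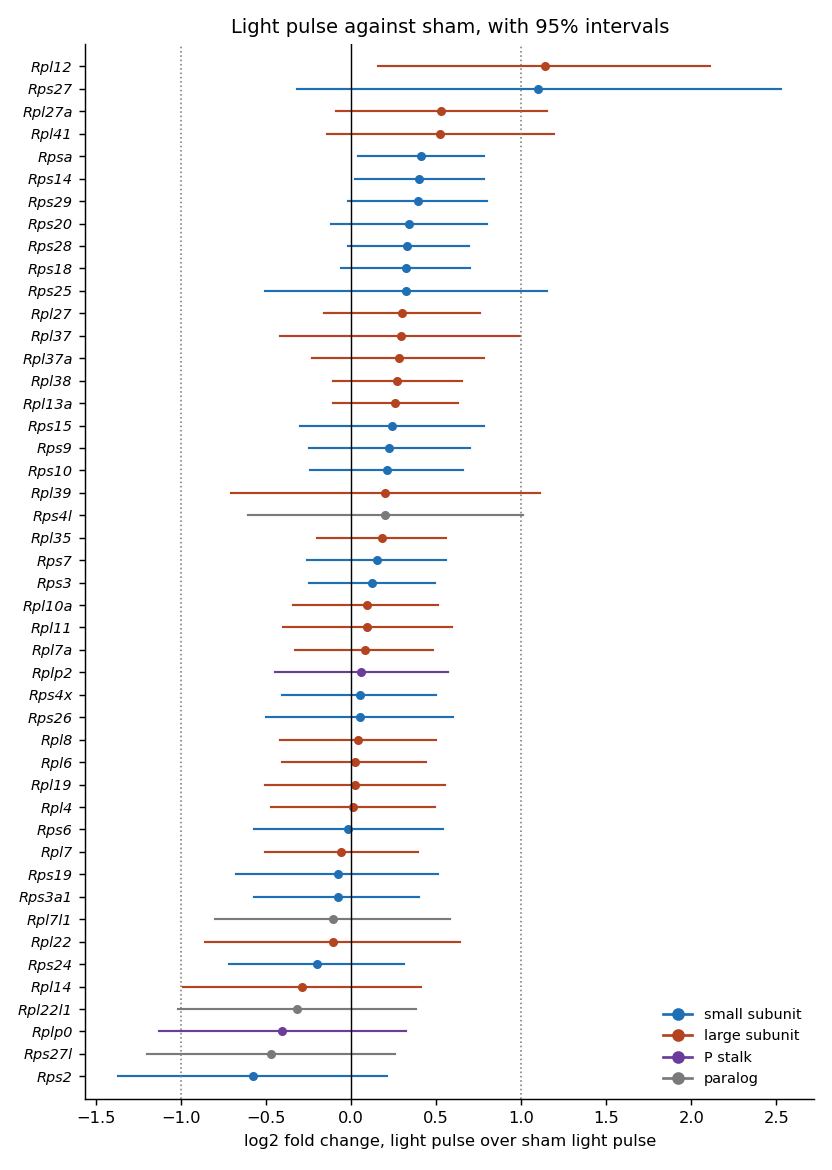
Log2 fold change, light pulse over sham light pulse (horizontal axis), of the brightest probe set of each of 46 ribosomal protein genes, with 95% intervals from limma and coloured by role, where dotted lines mark a 2-fold change. Rpl12 at 1.14 and Rps2 at -0.58 stood at the ends, and 34 of the 46 points lay above 0.

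Small subunit proteins had 40 kept probe sets, with a median log2 fold change of 0.18 and 28 above 0. Rpsa, also described as a laminin receptor, had signals of 32477, 24893 and 24490 in sham light pulse pools and 38813, 36331 and 32960 in light pulse pools. Every light pulse array was above every sham light pulse array, although sham light pulse replicate 1 lay close to the lowest of them. The log2 fold change of Rpsa was 0.41 ± 0.17 (SE), with a 95% interval of 0.04 to 0.78, an unadjusted p of 0.0332 and an adjusted p of 0.96 by limma.

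Rps14, a protein of the platform of the small subunit, had signals of 34592, 28628 and 25444 in sham light pulse pools and 33342, 39914 and 43140 in light pulse pools. The groups overlapped, since sham light pulse replicate 1 lay above light pulse replicate 1. Its log2 fold change was 0.40, with an interval of 0.02 to 0.78. A second Rps14 probe set had 29643, 25481 and 21032 against 32696, 31816 and 37809, with no overlap and a log2 fold change of 0.44.

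Rps29, a small zinc-binding protein, had signals of 43717, 37263 and 28656 in sham light pulse pools and 44377, 41285 and 57459 in light pulse pools, with a log2 fold change of 0.39. Rps28, which lies near the exit of the mRNA channel, had 41033, 33680 and 30495 against 42106, 42554 and 46978. Its 3 probe sets had log2 fold changes of 0.32, 0.33 and 0.35, and the groups did not overlap on any of them. In Rps29 the groups overlapped, and light pulse replicate 3 stood above the other arrays. In both genes sham light pulse replicate 3 was the lowest array.

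Rps2, which lines the entry of the mRNA channel, was the small subunit gene furthest below 0. Its signals were 6636, 9371 and 15662 in sham light pulse pools and 5976, 11875 and 4098 in light pulse pools. The groups overlapped widely, and sham light pulse replicate 3 was the highest array. The log2 fold change was -0.58, with an interval of -1.37 to 0.21, and it ran from -0.23 without light pulse replicate 3 to -1.0 without light pulse replicate 2 as each array was left out.

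Rps6, the substrate of the S6 kinases, had signals of 2063, 2107 and 2512 in sham light pulse pools and 1925, 1980 and 2757 in light pulse pools, with a log2 fold change of -0.02 and an interval of -0.57 to 0.54. A dimmer second Rps6 probe set, with a geometric mean signal of 83.9, gave 0.63. Rps3, which helps to unwind mRNA at the entry of the channel, had 22993, 19311 and 19071 against 22038, 23330 and 21223, and its highest array was 1.22 times its lowest. In both genes the groups overlapped.

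Large subunit proteins had 36 kept probe sets, with a median log2 fold change of 0.13 and 28 above 0. Rpl12, which sits at the base of the P stalk, had the largest difference of all 46 genes. Its signals were 107.6, 118.3 and 157.4 in sham light pulse pools and 193.8, 433.0 and 253.3 in light pulse pools. The groups did not overlap, with or without quantile normalization. The log2 fold change was 1.14 ± 0.45 (SE), the interval 0.16 to 2.11, the unadjusted p 0.0255 and the adjusted p 0.96 by limma. The probe set is dim, and 2 of its sham light pulse signals lay at or below 118.3, close to the limit of 118.2 that the filter set.

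Rpl41, the smallest ribosomal protein, had 4 kept probe sets with log2 fold changes from -0.01 to 0.77. The brightest had signals of 10668, 8772 and 19443 in sham light pulse pools and 20822, 22784 and 11425 in light pulse pools. It overlapped between groups, since sham light pulse replicate 3 was high and light pulse replicate 3 low. The dimmest had 236.2, 162.8 and 215.2 against 379.7, 345.3 and 314.1, with no overlap, a log2 fold change of 0.77 and an unadjusted p of 0.0465.

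Rpl11 binds and restrains the p53 regulator Mdm2 when ribosome assembly fails. Its signals were 3280, 3754 and 2975 in sham light pulse pools and 3200, 3753 and 3707 in light pulse pools, with a log2 fold change of 0.09. Rpl7a had a highest array 1.31 times its lowest and a log2 fold change of 0.08, and Rpl37 had 1.45 and 0.29. Rpl14 had 1721, 745.1 and 1078 against 935.7, 968.6 and 838.0, with a log2 fold change of -0.29. In these 4 genes the groups overlapped. In Rpl37 they did so because sham light pulse replicate 1, at 335.2, lay above light pulse replicate 3, at 328.5.

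Both P stalk genes overlapped between the groups. Rplp0, the scaffold on which the P1 and P2 proteins are mounted, had signals of 2996, 2056 and 4353 in sham light pulse pools and 2306, 3331 and 1504 in light pulse pools. Its log2 fold change was -0.41, with an interval of -1.13 to 0.32, and was -0.11 without light pulse replicate 3, its lowest array, and -0.68 without light pulse replicate 2 or sham light pulse replicate 2. Rplp2, a P2 protein, had 6259, 4202 and 6446 against 6118, 6207 and 5098, with a log2 fold change of 0.06.

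The paralogs, some of which replace a standard subunit in certain tissues, had 7 kept probe sets, with a median log2 fold change of -0.20, 2 above 0 and no call. Rps27l, a p53 target, had signals of 2001, 2012 and 1426 in sham light pulse pools and 2083, 814.9 and 1268 in light pulse pools. Its log2 fold change was -0.47 and its 3 probe sets were all below 0, with overlapping groups. Without light pulse replicate 2, the 3 probe sets of Rps27l had -0.14, 0.03 and 0.01. Its partner Rps27 had 46.9, 310.2 and 99.0 against 214.6, 149.8 and 444.7. The highest Rps27 array was 9.48 times the lowest, and its log2 fold change of 1.10 had an interval of -0.32 to 2.53.

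Rpl22l1 had signals of 1353, 1431 and 1613 in sham light pulse pools and 1952, 984.5 and 835.5 in light pulse pools, with a log2 fold change of -0.32. Light pulse replicate 1 was its highest array and the other light pulse arrays were below all sham light pulse arrays. Rpl22, its partner, had -0.11. Rpl7 and Rpl7l1 had -0.06 and -0.11, and Rps4x and Rps4l 0.05 and 0.20. Rpl39 had 0.20, and its paralog Rpl39l, known from testis, was left out with signals of 15.6, 28.7 and 12.4 against 64.6, 36.5 and 45.6. Rpl3l, a muscle paralog, ran from 3.1 to 51.2 and the groups overlapped.

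**Figure D2:**
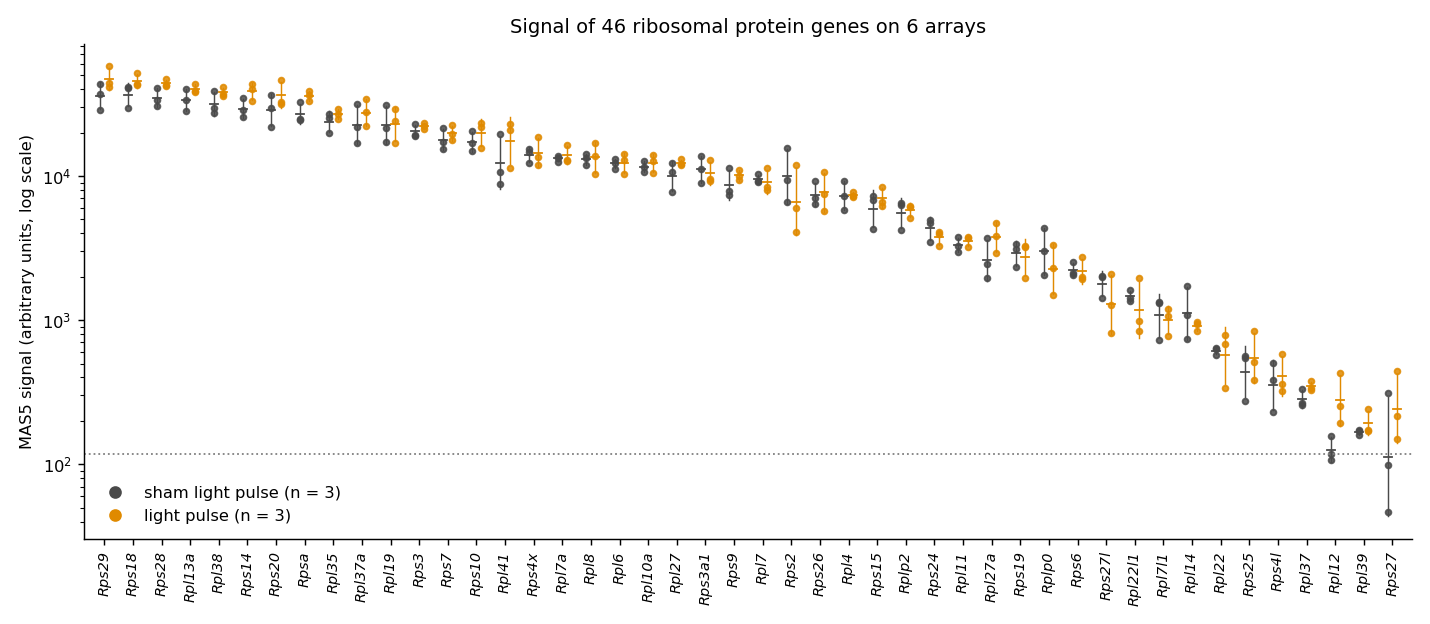
MAS5 signal (vertical axis, log scale, arbitrary units) of 46 ribosomal protein genes on 3 sham light pulse and 3 light pulse arrays. Points are arrays, horizontal marks are group means of the log2 signal and bars ± 1 SD and the dotted line stands at 118.2, the filter's limit. Genes are ordered by signal, which is not an order of abundance, and in the dim genes at the right, such as Rps27, the arrays of a group lie further apart.

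Ribosomal protein probe sets were bright as a group. Their geometric mean signals ran from 83.9 to 41233 with a median of 5658, against a median of 429 for all kept probe sets. They made up 9 of the 50 brightest kept probe sets, 13 of the 100 brightest and 36 of the 500 brightest, which belong to 6, 8 and 24 genes. On every array 43 of them, from 29 genes, lay above the 95th percentile of the signals. The summed signal of all 100 probe sets ran from 782037 to 959665 in sham light pulse pools and from 992194 to 1020710 in light pulse pools, with no overlap. It was 4.73%, 4.32% and 4.26% of the total in sham light pulse pools and 4.93%, 5.04% and 4.53% in light pulse pools, and as a share the groups overlapped, with light pulse replicate 3 below sham light pulse replicate 1. The brightest probe sets weigh most in such sums.

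The median differences were not the same in every range of brightness, and did not rise steadily with it. From a signal of 1000 up, other genes of the same brightness had medians of the same sign. The limits of these ranges were chosen after the values were seen, so none was tested. All 20 ribosomal protein probe sets with a signal of at least 20000, from 12 genes, had a log2 fold change above 0, with a median of 0.32 and a range of 0.02 to 0.44. Of 109 probe sets of other named genes in that range 103 (94.5%) were above 0, with a median of 0.24. Another 31 probe sets there, named for a ribosomal protein together with other symbols, had a median of 0.26. All light pulse arrays were above all sham light pulse arrays in 6 of the 20 (30.0%), all probe sets of Rps28 among them. The same held in 13 of the 109 others (11.9%) and 3 of the 31 (9.68%). Between 5000 and 20000 the medians were 0.08 for 23 ribosomal protein probe sets and 0.06 for 547 others, and between 1000 and 5000 they were -0.08 for 22 and -0.07 for 1966. Under 1000, 20 ribosomal protein probe sets had a median of 0.17 and 6795 others 0.01.

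Quantile normalization gives every array the same distribution of signals. It therefore brings the brightest probe sets as a group to about 0, whatever the cause of their difference. That cause was not tested by it. The median of the 20 ribosomal protein probe sets of at least 20000 went to 0.01 and that of the 109 others to -0.01. Over all 85 probe sets the median went to 0.01, with 46 above 0 and 39 below (54.1% above 0). The probe sets whose groups did not overlap numbered 4 in place of 8, all with the light pulse above, or 4.71% beside 5.03% of all kept probe sets with the light pulse above and 4.46% with it below. Rpl12, the dimmest probe set of Rpl41 and one probe set of Rps14 were in both counts, and the other of the 4 was a probe set of Rpl13a. Among genes of the bright range, the log2 fold change of Rpsa became 0.12, that of Rps14 0.09, that of Rps29 0.07 and that of Rps28 0.01. The dim Rpl12 remained at 1.05.

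**Figure D3:**
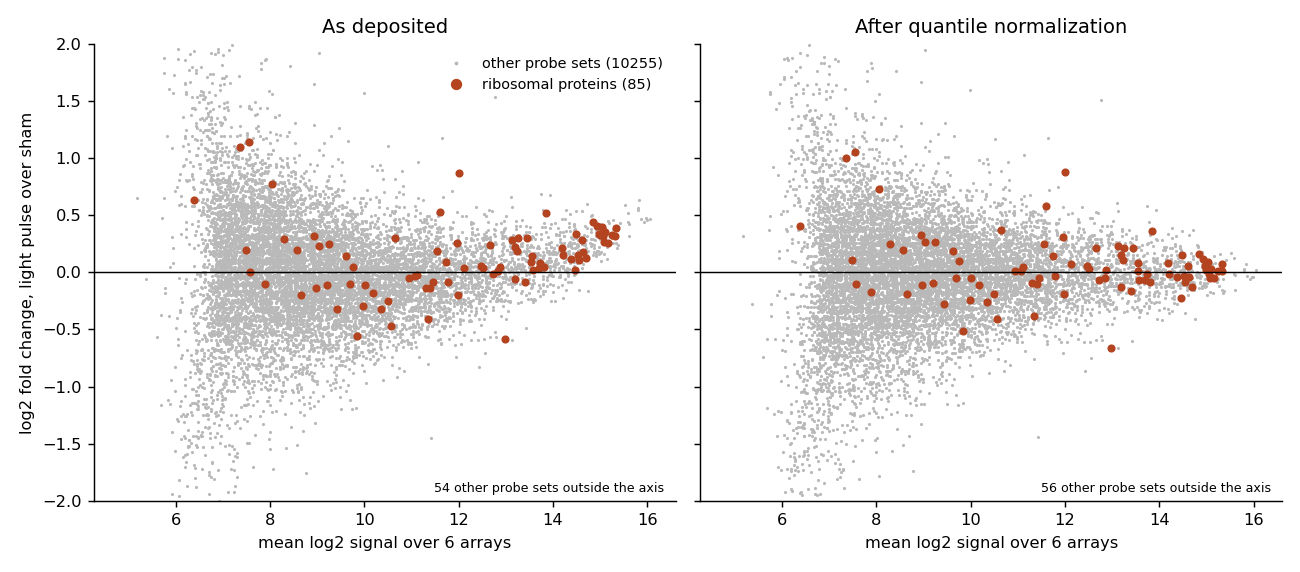
Log2 fold change, light pulse over sham light pulse, against mean log2 signal over 6 arrays for 85 ribosomal protein probe sets and all other kept probe sets, as deposited (left) and after quantile normalization (right). On the left the ribosomal protein points at the bright end lie above 0 within the cloud of other genes. On the right both lie around 0, where the normalization places the bright end.

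Sham light pulse replicate 3 stood apart among the bright probe sets. The median deviation of the 20 bright ribosomal protein probe sets from their own mean, in log2 signal, was 0.07, -0.16 and -0.39 in sham light pulse pools and 0.17, 0.10 and 0.21 in light pulse pools. For the 109 other bright probe sets it was 0.03, -0.04 and -0.37, and then 0.09, 0.01 and 0.32. In both sets sham light pulse replicate 3 was the lowest array, with 0 of the 20 and 2 of the 109 above their own mean. Light pulse replicate 3 was high among the other genes, with 98 of the 109 above their own mean, but among the ribosomal proteins it lay close to light pulse replicate 1, with 14 and 19 of the 20 above. Without sham light pulse replicate 3 the median log2 fold change of the 20 was 0.17 and that of the 109 was 0.12, and without light pulse replicate 3 they were 0.28 and 0.16. The bright ribosomal protein probe sets were thus above 0 at the median with either array left out. What set these arrays apart was not tested.

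**Figure D4:**
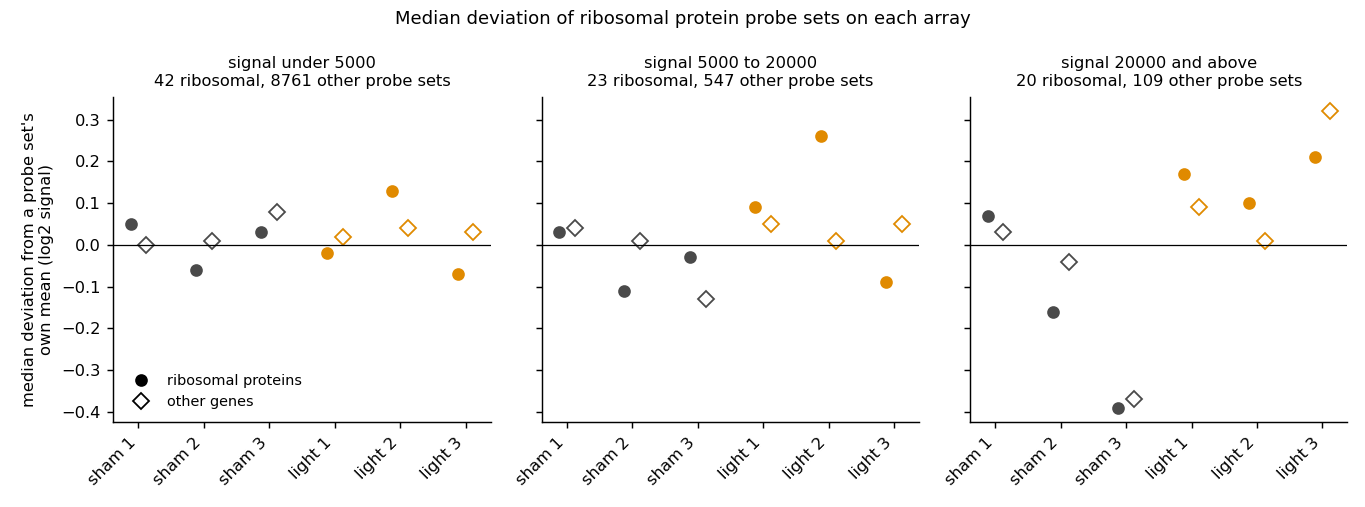
Median deviation of ribosomal protein probe sets (filled) and probe sets of other named genes (open) from each probe set's own mean over 6 arrays, in log2 signal, on each array and in 3 ranges of signal. At 20000 and above, sham light pulse replicate 3 lies at -0.39 and -0.37 and light pulse replicate 3 at 0.21 and 0.32.

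The pools of a group differed little in most ribosomal protein transcripts. The median standard deviation within a group was 0.28 on the log2 scale, or 1.21-fold, against 0.43, or 1.35-fold, over all kept probe sets. Much of that gap went with brightness. At a signal of at least 20000 the median was 0.21 for ribosomal proteins and 0.24 for other genes, between 5000 and 20000 it was 0.27 and 0.25, and under 5000 it was 0.35 and 0.45. Divided by the spread that limma expects at the probe set's signal, the medians were 0.94 for ribosomal proteins and 0.95 for all kept probe sets. With the brightest probe set standing for each gene, Rps3, Rpl11, Rpl7a, Rpl37 and Rps28 had the smallest spread, from 0.12 to 0.17, and Rps27, Rps2, Rps25, Rpl41 and Rplp0 the largest, from 0.56 to 1.12. Among dimmer probe sets of a gene the range was wider, from 0.08 in one of Rpl13a to 2.11 in one of Rps6. Rps25, which some viral mRNAs need for initiation, had 562.0, 274.0 and 546.1 in sham light pulse pools and 383.8, 509.6 and 842.7 in light pulse pools.

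The genes did not deviate together as one group. Over the 6 arrays, after the mean of each group was taken off, the median correlation between pairs of the 46 genes was 0.01. Among the 12 genes of signal at least 20000 it was 0.47, but among 94 other genes of that brightness it was 0.59. It was 0.15 between 5000 and 20000 and -0.05 under 5000. These are descriptions over 6 arrays whose points share amplification, scaling and array.

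Probe sets of the same gene often differed in the sign of their fold change. Of 20 genes with several kept probe sets, 9 had all of them on one side of 0 and 11 on both sides. Many of these values were small beside the median standard error of 0.25, so their sign is uncertain. The share among other genes was not computed, so the count is not read as a trait of ribosomal protein genes. The 3 kept probe sets of Rps18 had log2 fold changes from 0.30 to 0.32 and the 5 of Rpl35 from 0.11 to 0.23, while the 5 of Rps10 ran from -0.03 to 0.87. Rpl35 encodes a protein by the exit of the peptide tunnel. Rps18 had another 3 probe sets that were not kept, with geometric mean signals of 8.72, 13.5 and 19.1, while its kept ones had 1605, 9805 and 40864. Rps4x had 1 kept and 1 not kept, at 14226 and 5.63, and the dimmest of Rpl35, at 12.6, was not kept either. Signals so far under the filter's limit give no measured ratio. Ribosomal protein genes have many processed pseudogenes, and probe set names ending in _x_at mark probes that may bind other sequences. Such names made up 43.5% of the kept ribosomal protein probe sets and 9.54% of all kept ones. The 37 had a median log2 fold change of 0.25, the 19 ending in plain _at 0.14 and the 27 ending in _a_at 0.05. Most ribosomal protein probe sets with a signal of at least 20000, all of them above 0, end in _x_at. Name ending and brightness were therefore not told apart here. How much of a signal came from other sequences was not tested.

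Several of these genes serve as references in quantitative PCR, where a stable level is assumed. Rpl13a had signals of 33858, 39903 and 28182 in sham light pulse pools and 38984, 38401 and 43720 in light pulse pools, with a log2 fold change of 0.26. Rps18 had 40445, 41069 and 29467 against 42418, 43207 and 51903, with 0.32 and no overlap. Rpl19 had 31027, 17129 and 21497 against 29174, 24126 and 16993, with 0.02. Its groups overlapped. The highest array was 1.55 times the lowest in Rpl13a, 1.76 times in Rps18, 1.83 times in Rpl19, 2.01 times in Rps29 and 2.89 times in Rplp0. With Rps29 and Rplp0, the log2 fold changes of these 5 genes ran from -0.41 to 0.39 and none was called. After quantile normalization, which brings the brightest probe sets as a group to about 0, Rpl13a was at -0.05 and Rps18 at 0.01. Rps29 was then at 0.07, Rpl19 at -0.22 and Rplp0 at -0.38.

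The genes with a pyrimidine run at the annotated start and those without one are described side by side. The 13 with a run had a median log2 fold change of 0.20 and a median signal of 5658, and the 27 kept genes without one had 0.09 and 8104. In the sequences printed above, the run-bearing Rps18 had 0.32, Rpl35 0.18, Rpl7a 0.08, Rplp2 0.06, Rps6 -0.02 and Rpl14 -0.29, and Rpl12 and Rpl11, without a run over the annotated base, had 1.14 and 0.09. These genes were chosen to differ in fold change, so nothing is read from their values.

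Other genes of the translation apparatus, counted with 1 probe set for each gene, had no call either. Over all kept probe sets 0.0677% were called higher and 0.0% lower. The 73 kept mitochondrial ribosomal proteins, which serve the separate ribosome of that organelle, had a median log2 fold change of -0.01, with 36 above 0. All light pulse arrays were above all sham light pulse arrays in 6 of the 73 and below in 4, beside 5.62% and 4.46% of all kept probe sets. Mrpl41 had signals of 32914, 27902 and 22255 in sham light pulse pools and 33647, 34034 and 34726 in light pulse pools, with no overlap and 0.32. It lies in the bright range where most other genes were above 0. Mrpl39 had 0.16. The 32 initiation factors and poly(A)-binding protein genes had a median of -0.06 and 15 above 0, with Eif4h at -0.06 and Eif3i at 0.03. The 8 kept elongation factors had a median of 0.05, and Eef1a1, which brings aminoacyl-tRNA to the ribosome, had 14663, 18563 and 13820 against 13468, 15872 and 17938, with 0.01.

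The 35 kept assembly factors and subunits of RNA polymerase I, which make and process ribosomal RNA, had a median of -0.03, with Npm1 at -0.13 and Polr1c at 0.34. The 4 genes of ribosomal fusion proteins and ribosome-associated proteins had a median of 0.28, with the bright Tpt1 at 0.22 and Naca at -0.41. Fau, which encodes ribosomal protein S30 fused to a ubiquitin-like protein, had 2166, 1471 and 2375 against 2564, 4671 and 2329, with 0.63 and overlap. The 6 kept genes of mTORC1, its regulators and the kinases that act on Rps6 had a median of 0.15, with Rheb at 0.13 and Tsc1 at -0.09. Against these, the 46 cytosolic ribosomal protein genes had a median of 0.14, and no difference between lists was tested.

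Without light pulse replicate 3, the array with high Ttr, 0 of the 85 probe sets were called, the median was 0.18 and 63 were above 0. Among single genes, the log2 fold change of Rpl41 then moved from 0.52 to 0.84, Rps27 from 1.10 to 0.67, Rps29 from 0.39 to 0.25, Rps25 from 0.32 to 0.01, Rps4l from 0.20 to -0.06, Rpl19 from 0.02 to 0.24, Rpl22 from -0.11 to -0.35 and Rpl22l1 from -0.32 to -0.08. The several-symbol probe sets that name a ribosomal protein gave similar counts: of 92 kept, 0 were called, 65 were above 0 and the median was 0.10.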

How the data were processed

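RNA from laser-captured SCN was amplified in 2 rounds from 1 ng and hybridized to 6 Affymetrix arrays, 3 in each group. Labels give RNA integrity numbers as about 6.8. The authors computed the intensity values they deposited with MAS5 (version not given), on a linear scale. Present calls, which the study used as a filter, were not used here, and the 10340 probe sets of highest third-ranked signal stood in. Array signals hold no counts, and 3 arrays per group limit the precision.

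Log2 signals without offset were compared with limma 3.58.1 in R 4.3.3 (lmFit, eBayes with intensity trend, two-sided, Benjamini-Hochberg over all kept probe sets, threshold 0.05), after tests on simulated data. Values of probe sets not kept came from a fit of all 22626. Gene symbols came from the platform annotation: 20380 probe sets had 1 symbol, 691 several and 1555 none. All 100 matched RefSeq by Entrez ID. Genes were named by role, paralog pairing, smallest p, spread and disagreement between probe sets; list members by highest signal. Members, lists and rules were chosen with earlier results of these data known. Alternatives were no or a stricter filter, an offset of 50, a common 75th percentile, quantile normalization, no intensity trend, Cyber-T rewritten here (window 101, prior weight 10), the replicate block, no _x_at and _s_at probe sets, 1 probe set per gene, and leaving out each array.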

Additional observations from a re-analysis of the deposited data

How the results depend on the processing

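Under every alternative run, 0 ribosomal protein probe sets were called, and over the arrays left out in turn the count ran from 0 to 0 while the median log2 fold change ran from 0.07 to 0.21. The median was 0.13 as reported, 0.01 with quantile normalization, and between 0.06 and 0.15 with the others. With the replicate block it was 0.13, with 0 called and 6 of all probe sets called in place of 7. Same-numbered arrays had correlations of deviations of 0.0958, -0.192 and -0.129, so the numbers were not taken to pair the arrays. Without an intensity trend, 4 of all probe sets were called. Of 29 named genes, 7 changed sign with quantile normalization, 2 to 5 when an array was left out and 0 otherwise. Only 24 of them could be compared with the stricter filter, and 20 without _x_at and _s_at probe sets. The smallest adjusted p of a member over all settings was 0.666. Genes of low signal, such as Rpl12 and Rps27, are the least precise here.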
